A study of Homo sapiens with 8 samples.

Results

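A set of 10 genes was examined that had been selected on their array signals, namely low values in doxycycline-treated shHDAC2 cells against the control cells. They are LRRC58, TMTC3, CAND1, MRTFB, CBX5, STK38, DEPDC1, the pseudogene CHORDC1P4, CEMIP and EDIL3. A gene entered through every transcript cluster, the probe set of one transcript region, whose only gene symbol was its own. This gave 11 clusters, 2 of them for DEPDC1, out of 16098 clusters with exactly 1 symbol, and 10 genes out of 14884. The cells were A172, an established human glioblastoma line, transduced with lentivirus and selected with puromycin so that doxycycline induces either an shRNA targeting HDAC2 (shHDAC2 cells) or a control one (shControl cells). Each was kept without doxycycline, DOX(-), or with 2.5 μg/ml doxycycline for 48 h, DOX(+), and each of the 4 groups had 2 biological replicates, 8 arrays in all. Nothing in the sources says whether a line was 1 clone, or that replicates came from separate infections, so p-values measure the spread between these arrays. A further label field names the other construct for the shControl DOX(+) and shHDAC2 DOX(-) samples, and groups here follow the titles and the treatment field. Every comparison below uses some of these samples, so it depends on that reading of the labels, which was not tested.

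HDAC2 is a class I histone deacetylase, an enzyme that removes acetyl groups from histone tails as part of corepressor complexes. The 10 genes belong to no single pathway. CBX5 encodes HP1 alpha, which binds methylated lysine 9 of histone H3 in heterochromatin. CAND1 binds cullins free of NEDD8 and exchanges the substrate receptors of cullin ubiquitin ligases. STK38, also called NDR1, is a kinase related to the LATS kinases of the Hippo pathway. MRTFB is an actin-regulated coactivator of serum response factor. DEPDC1 is a protein of dividing cells. CEMIP takes part in the breakdown of hyaluronan, and EDIL3 is a secreted integrin ligand. TMTC3 is an O-mannosyltransferase of the endoplasmic reticulum that acts on cadherins, LRRC58 is a protein with leucine-rich repeats, and CHORDC1P4 is a transcribed pseudogene of CHORDC1, an HSP90 co-chaperone.

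Signals were log2 values from Affymetrix arrays, so a difference of 1 is a doubling, and levels of different genes are not compared because each has its own probes. The array medians lay between 3.638 and 3.676. The shHDAC2 DOX(-) arrays stood apart, with correlations of 0.95 to 0.9538 across clusters with the other 6 arrays, which correlated at 0.982 to 0.9911 among themselves. Every comparison below that uses the shHDAC2 DOX(-) arrays therefore rests on a pair of arrays unlike the rest. This pair is also among the samples whose label fields disagree. HDAC2 itself (cluster 17022854) read 6.42 and 6.30 in shControl DOX(-), 6.14 and 6.15 in shControl DOX(+), 5.69 and 5.80 in shHDAC2 DOX(-) and 4.95 and 5.34 in shHDAC2 DOX(+). It was already lower in shHDAC2 cells before doxycycline (log2 difference -0.61, SE 0.142, limma adjusted p = 0.0101). A second HDAC2 cluster (17011843) was dim, with a mean of 2.33 over the shControl arrays. Its DOX(-) difference of 0.097 did not pass (SE 0.145, limma adjusted p = 0.685), so the lower HDAC2 signal rests on the brighter cluster. Of 9 measured glial and glioma markers, 7 lay at or above the median cluster signal of 3.664. Means over the 8 arrays were 9.77 for VIM, 8.60 for SOX9, 7.20 for NES and 4.71 for GFAP, the median of this list. SOX2 and OLIG2 lay below GFAP but above 3.664, and S100B (2.96) and AQP4 (2.55) lay below 3.664. Of 8 measured markers of epithelial, blood, endothelial and liver cells, 4 lay at or above 3.664. Some markers differed in the shHDAC2 DOX(-) arrays. The keratin gene KRT18 read 10.44, 10.30, 10.70 and 10.52 in shControl, 6.28 and 6.24 in shHDAC2 DOX(-) and 10.24 and 9.97 in shHDAC2 DOX(+), a DOX(-) difference of -4.11 (limma adjusted p = 8.6e-08). KRT8 (-1.32, limma adjusted p = 0.0041), NES (-2.29, limma adjusted p = 4.2e-06) and SOX9 (-0.45, limma adjusted p = 0.022) were lower there too, and VIM was higher (0.58, limma adjusted p = 0.0028). In all, 2 of 9 glial markers were lower and 1 was higher, and 3 of 8 markers of other cells were lower. The shares over all genes there were 17.0% lower and 14.0% higher. The part of the markers in the DOX(-) differences given below was not tested.

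RefSeq promoter sequence (GRCh38.p14) was found for 8 of the 10 genes, in 14 windows of 250 bases before an annotated start. The windows below belong to CBX5, which was low in the DOX(+) shHDAC2 arrays alone, to DEPDC1 and EDIL3, which were high in shHDAC2 DOX(-), and to CEMIP and LRRC58, the members with the most negative differences in the comparison that chose them. They are written 5′ to 3′ on the gene's strand, ending at the base before the start. They lie at chr12:54280123-54280372 (minus strand), chr1:68497083-68497332 (minus), chr5:84384881-84385130 (minus), chr15:80779120-80779369 (plus) and chr3:120349355-120349604 (minus). Capitals mark matches on either strand to the CCAAT box (CCAAT), the GC box (GGGCGG), the TATA box (TATAAA), the E-box (CACGTG), the CHR element of cell cycle promoters (TTTGAA) and the NRF1 core (GCGCATG).
CBX5: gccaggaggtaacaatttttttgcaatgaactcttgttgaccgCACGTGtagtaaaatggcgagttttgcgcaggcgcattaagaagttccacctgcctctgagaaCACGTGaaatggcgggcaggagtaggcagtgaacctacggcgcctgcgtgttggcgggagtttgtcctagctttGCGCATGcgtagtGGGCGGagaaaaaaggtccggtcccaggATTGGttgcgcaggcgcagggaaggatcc
DEPDC1: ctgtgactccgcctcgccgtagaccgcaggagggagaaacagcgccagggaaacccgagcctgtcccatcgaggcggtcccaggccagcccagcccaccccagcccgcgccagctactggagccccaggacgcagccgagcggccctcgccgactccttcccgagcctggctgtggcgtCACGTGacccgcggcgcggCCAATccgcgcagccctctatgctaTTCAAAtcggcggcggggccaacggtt
EDIL3: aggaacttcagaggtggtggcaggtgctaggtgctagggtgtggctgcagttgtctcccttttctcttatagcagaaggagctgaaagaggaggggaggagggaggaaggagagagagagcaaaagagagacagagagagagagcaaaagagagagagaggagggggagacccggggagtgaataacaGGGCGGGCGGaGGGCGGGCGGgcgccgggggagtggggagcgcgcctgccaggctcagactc
CEMIP: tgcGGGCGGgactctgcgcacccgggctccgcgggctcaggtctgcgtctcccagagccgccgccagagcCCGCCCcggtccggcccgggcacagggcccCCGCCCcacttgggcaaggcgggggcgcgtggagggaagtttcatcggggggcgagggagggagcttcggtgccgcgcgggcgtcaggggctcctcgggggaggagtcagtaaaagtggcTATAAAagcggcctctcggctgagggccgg
LRRC58: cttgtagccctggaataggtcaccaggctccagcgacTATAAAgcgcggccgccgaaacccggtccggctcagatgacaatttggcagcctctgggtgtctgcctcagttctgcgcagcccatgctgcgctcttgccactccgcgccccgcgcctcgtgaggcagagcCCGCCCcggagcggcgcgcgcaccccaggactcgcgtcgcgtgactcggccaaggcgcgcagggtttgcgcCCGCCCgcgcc

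The GC box was present in 8 of the 14 windows and in 42.6% of all 35116 windows of this length. Its windows came from 6 of these 8 genes (CAND1, CBX5, CEMIP, EDIL3, LRRC58 and MRTFB). The CCAAT box occurred in 5 of the 14 windows, from 3 genes (CBX5, DEPDC1 and MRTFB), and in 32% of all windows. Each of the other elements occurred in 2 of the 14 windows. The TATA box occurred in CEMIP and LRRC58 and in 10.7% of all windows, and the E-box in CBX5 and DEPDC1 and in 6.34%. The CHR element occurred in DEPDC1 and TMTC3 and in 13.3%, and the NRF1 core in CBX5 and MRTFB and in 3.77%. No element was present in all 8 genes. The GC boxes of EDIL3 overlap each other in pairs. Genes with several windows had more chances to match, and a match is a description of letters, not a site of binding.

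The comparison that chose the genes set both shHDAC2 DOX(+) arrays against the 4 shControl arrays. Its values describe the choice and were not tested. The 10 differences ran from -1.95 for LRRC58 to -1.24 for EDIL3 on the log2 scale, with a median of -1.60 against -0.01 over all genes. In every one of the 10, both shHDAC2 DOX(+) arrays lay below all 4 shControl arrays, as they did in 18.2% of all genes, and 4.88% of all genes were called lower in this comparison at an adjusted p under 0.05. These shares stand beside a count that the choice fixed. Ranked by difference, the members stood between places 2 and 34 of all genes, and they were 10 of the 78 genes below -1. HNRNPA1P33, a pseudogene that was not chosen, stood first at -2.14, KIT at place 5 (-1.69) and TYMS at place 7 (-1.61), and UEVLD came directly after EDIL3 at -1.24.

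**Figure D1:**
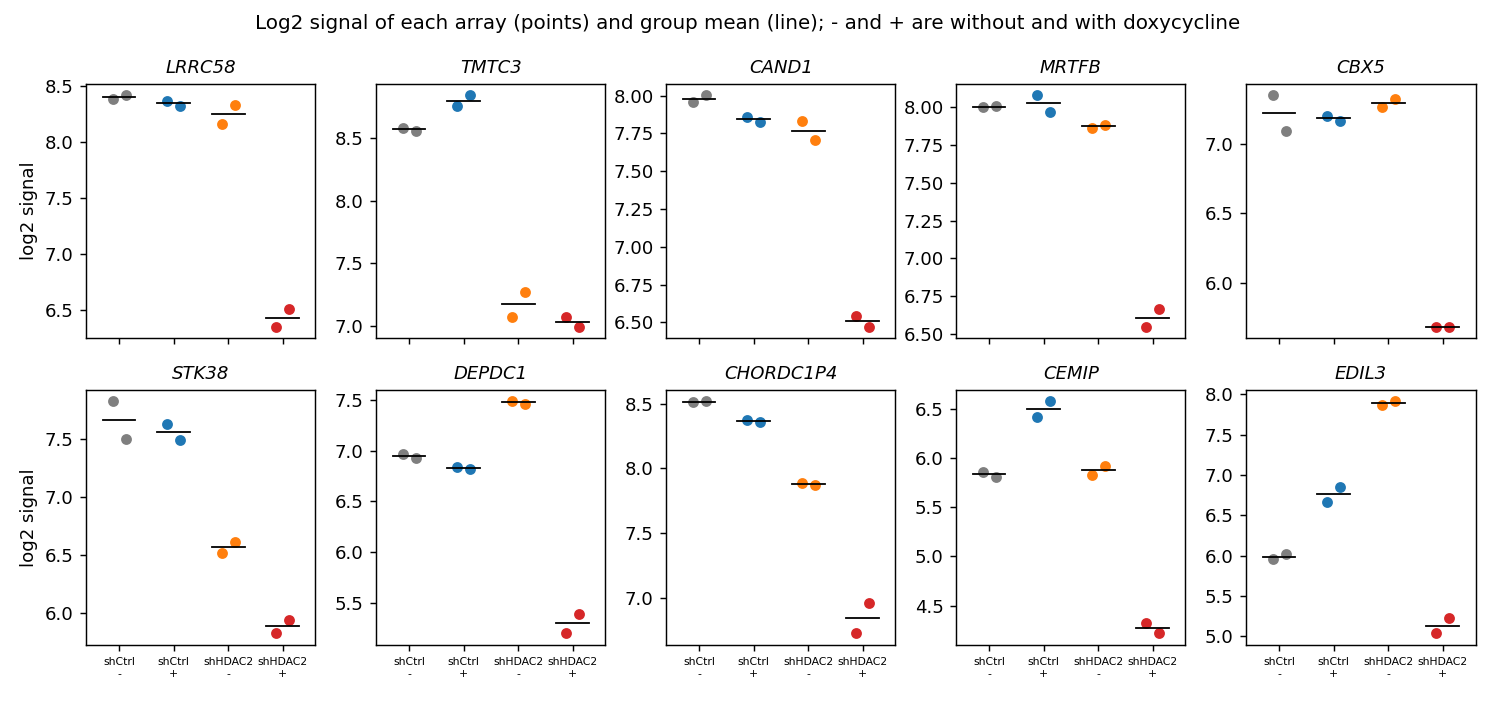
Log2 signal (vertical axes, own scale per gene) of the 10 genes in each of the 8 arrays, with points for arrays and a line at each group mean. The shHDAC2 DOX(+) points are lowest in every panel, and the shHDAC2 DOX(-) points of TMTC3, STK38, CHORDC1P4 and, by a small margin, of MRTFB lie below the shControl points while those of DEPDC1 and EDIL3 lie above them.

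In 5 genes the shHDAC2 DOX(-) arrays were not called different from shControl DOX(-), and the low values were those of doxycycline-treated shHDAC2 cells. The shControl DOX(-) arrays were also used in the choice of the genes, so the DOX(-) tests of members are not independent of it. LRRC58 (cluster 16957874) had signals of 8.38 and 8.42 in shControl DOX(-), 8.37 and 8.32 in shControl DOX(+), 8.16 and 8.33 in shHDAC2 DOX(-) and 6.35 and 6.50 in shHDAC2 DOX(+). The highest DOX(+) shHDAC2 array lay 1.82 below the lowest shControl array, whereas the 4 shControl arrays spanned 0.0942. The signal was 3.53-fold lower with doxycycline in shHDAC2 cells (log2 difference -1.82, SE 0.115), and without doxycycline the constructs differed by -0.15 (SE 0.115, limma adjusted p = 0.379).

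CBX5, the HP1 alpha gene (cluster 16765513), read 7.35 and 7.09 in shControl DOX(-), 7.20 and 7.17 in shControl DOX(+), 7.26 and 7.32 in shHDAC2 DOX(-) and 5.68 in both shHDAC2 DOX(+) arrays. Only the DOX(+) shHDAC2 arrays were separate from the others. The signal was 3.05-fold lower with doxycycline in shHDAC2 cells (-1.61, SE 0.118), and the DOX(-) difference between constructs was 0.07 (SE 0.118, limma adjusted p = 0.725).

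CAND1 (cluster 16753712) read 7.96 and 8.003, then 7.86 and 7.83 in the shControl DOX(-) and DOX(+) arrays, and 7.83 and 7.71, then 6.54 and 6.47 in the shHDAC2 DOX(-) and DOX(+) arrays. MRTFB (cluster 16815985) read 8.003 and 8.009, then 8.08 and 7.97 in shControl, and 7.87 and 7.88, then 6.55 and 6.67 in shHDAC2 in the same order. In both genes the DOX(+) shHDAC2 pair lay far below the other 6 arrays, and in MRTFB the DOX(-) shHDAC2 pair also lay slightly below all 4 shControl arrays. Doxycycline in shHDAC2 cells went with a 2.40-fold lower signal of CAND1 (-1.26, SE 0.107) and a 2.41-fold lower signal of MRTFB (-1.27, SE 0.108). Without doxycycline, the constructs differed by -0.21 in CAND1 (limma adjusted p = 0.182) and by -0.13 in MRTFB (limma adjusted p = 0.429).

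CEMIP, the hyaluronan gene (cluster 16803754), read 5.86 and 5.81 in shControl DOX(-), 6.42 and 6.57 in shControl DOX(+), 5.83 and 5.92 in shHDAC2 DOX(-) and 4.33 and 4.22 in shHDAC2 DOX(+). The shControl DOX(+) arrays were the highest and the shHDAC2 DOX(+) arrays the lowest, so the pairs on doxycycline were farther apart than those without. On doxycycline CEMIP was 4.67-fold lower in shHDAC2 than in shControl cells (-2.22, SE 0.113), the lowest difference of all genes there, and without it the difference was 0.04 (SE 0.113, limma adjusted p = 0.844).

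In TMTC3, STK38 and CHORDC1P4 the signal was lower in shHDAC2 cells before any doxycycline was given. This comparison of the DOX(-) groups shares its shControl DOX(-) arrays with the choice of the genes. TMTC3 (cluster 16754935) read 8.58 and 8.56 in shControl DOX(-), 8.75 and 8.84 in shControl DOX(+), 7.07 and 7.27 in shHDAC2 DOX(-) and 7.07 and 6.99 in shHDAC2 DOX(+). All 4 shHDAC2 arrays lay below all 4 shControl arrays, and those with and without doxycycline nearly met. Without doxycycline TMTC3 was 2.63-fold lower in shHDAC2 cells (-1.40, SE 0.114, limma adjusted p = 2.6e-05), and doxycycline in shHDAC2 cells went with a difference of -0.14 (SE 0.114). The DOX(-) shHDAC2 arrays differed from the 4 shControl arrays by 91.6% of the DOX(+) difference.

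STK38, the NDR1 kinase gene (cluster 17018636), read 7.82 and 7.50 in shControl DOX(-), 7.63 and 7.49 in shControl DOX(+), 6.52 and 6.61 in shHDAC2 DOX(-) and 5.83 and 5.94 in shHDAC2 DOX(+). The values formed 3 separate steps, with shControl highest and the doxycycline-treated shHDAC2 cells lowest. The DOX(-) difference between constructs was -1.10 (2.14-fold lower, SE 0.136, limma adjusted p = 0.00032), and the difference with doxycycline in shHDAC2 cells was -0.68 (SE 0.136).

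The pseudogene CHORDC1P4 (cluster 16853523) had the same steps, at 8.52 and 8.52 in shControl DOX(-), 8.38 and 8.36 in shControl DOX(+), 7.88 and 7.87 in shHDAC2 DOX(-) and 6.72 and 6.96 in shHDAC2 DOX(+). Without doxycycline it was 1.56-fold lower in shHDAC2 cells (-0.64, SE 0.115, limma adjusted p = 0.0027), and with doxycycline in shHDAC2 cells the difference was -1.04 (SE 0.115). The array cannot tell apart RNA of the pseudogene and RNA of a near-identical copy that binds the same probes, so the gene behind this signal is uncertain.

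DEPDC1 and EDIL3 went the other way before doxycycline. DEPDC1 (cluster 16688386) read 6.96 and 6.93 in shControl DOX(-), 6.83 and 6.82 in shControl DOX(+), 7.48 and 7.46 in shHDAC2 DOX(-) and 5.199 and 5.39 in shHDAC2 DOX(+). The shHDAC2 cells thus held both the highest and the lowest arrays. Without doxycycline DEPDC1 was 1.44-fold higher in shHDAC2 cells (0.53, SE 0.111, limma adjusted p = 0.0061), and with doxycycline in shHDAC2 cells it was 4.53-fold lower (-2.18, SE 0.111).

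The second DEPDC1 cluster (16665960) was dimmer, at 4.63 and 4.67, then 5.00 and 4.72 in the shControl DOX(-) and DOX(+) arrays, and 4.86 and 4.96, then 3.87 and 3.74 in the shHDAC2 DOX(-) and DOX(+) arrays. It was lowest in the same arrays, but its DOX(-) difference of 0.26 did not pass (SE 0.127, limma adjusted p = 0.173), so the rise before doxycycline rests on 1 of 2 clusters.

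EDIL3, the integrin ligand gene (cluster 16997816), read 5.95 and 6.01 in shControl DOX(-), 6.66 and 6.85 in shControl DOX(+), 7.86 and 7.91 in shHDAC2 DOX(-) and 5.04 and 5.22 in shHDAC2 DOX(+). No group overlapped another. EDIL3 was 3.74-fold higher in shHDAC2 than in shControl cells without doxycycline (1.90, SE 0.120, limma adjusted p = 5.3e-06), and 6.76-fold lower with doxycycline in shHDAC2 cells (-2.76, SE 0.120). Of the 10 genes it was the one whose comparison with the 4 shControl arrays was closest to 0 and whose difference with doxycycline was the largest.

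**Figure D2:**
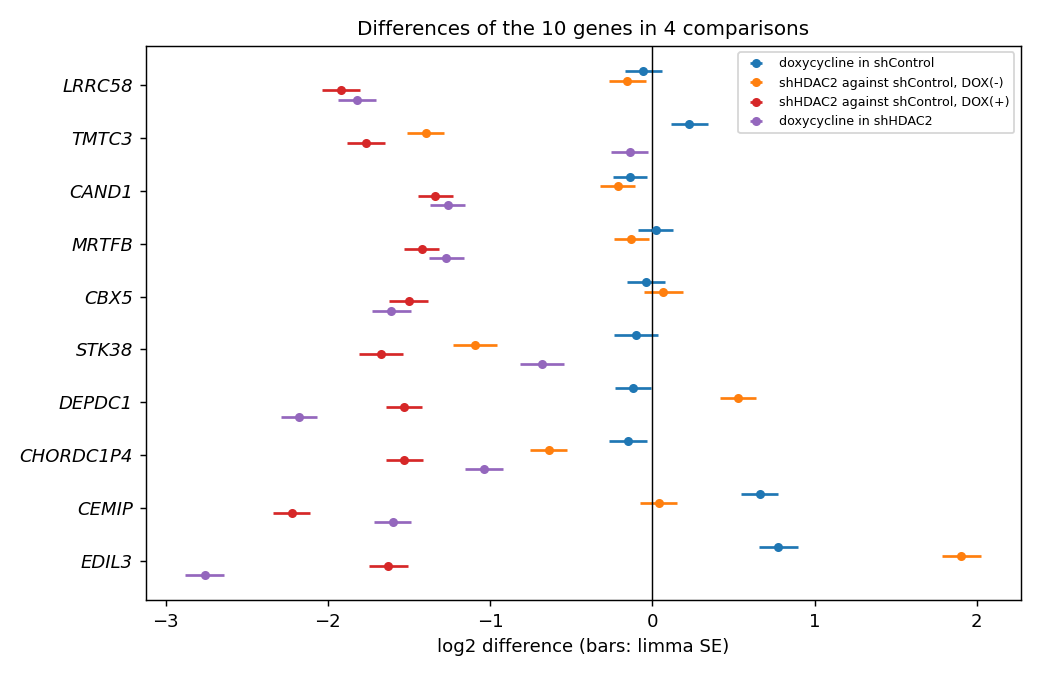
Log2 differences (horizontal axis) of the 10 genes in 4 comparisons, with the limma standard error as bars. The orange points for shHDAC2 against shControl without doxycycline run from -1.40 in TMTC3 to 1.90 in EDIL3, while the red points for the same constructs on doxycycline all lie at or below -1.34.

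Without doxycycline, then, 3 of the 10 genes were lower in shHDAC2 cells, 2 were higher and 5 did not pass, with a median of -0.14 against 0.02 over all genes. Among all genes 17.0% were lower and 14.0% were higher in that comparison. The choice also used the shControl DOX(-) arrays and favoured genes high in them, so the members' count and median are descriptions. With doxycycline in shHDAC2 cells the 10 differences ran from -2.76 to -0.14 with a median of -1.43. Both DOX(+) arrays lay below both DOX(-) arrays in each of the 10, as in 31.7% of all genes. For TMTC3 that separation was a matter of the third decimal, 7.0730 against 7.0741. These values share the shHDAC2 DOX(+) arrays with the choice and carry no test.

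Doxycycline alone, in shControl cells, was the comparison between samples that the choice pooled on one side. None of the 10 genes was called there, with 0 of 14884 genes (0%) called by limma, 801 at an unadjusted p under 0.05, and 0 by the unpaired t-test of the methods after Benjamini-Hochberg adjustment. The differences of 8 genes lay between -0.15 (CHORDC1P4) and 0.23 (TMTC3). CEMIP and EDIL3 were the exceptions in size, at 0.66 (1.58-fold higher, SE 0.113) and 0.78 (1.71-fold higher, SE 0.120). In both genes, as in TMTC3, each DOX(+) array lay above each DOX(-) array. In LRRC58, CAND1, DEPDC1 and CHORDC1P4 each DOX(+) array lay below each DOX(-) array. The share of all genes with such a separation was not counted. Neither CEMIP nor EDIL3 passed (limma unadjusted p = 0.00026 and 0.00013, adjusted p = 0.550 for both).

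Over the 8 arrays, the genes differed in how closely they followed their own mean pattern, for which each gene was centred on its mean. Pearson's r with that pattern was 0.997 for MRTFB and 0.995 for LRRC58, and 0.70 and 0.69 for TMTC3 and EDIL3. The genes outside the set whose patterns were most like the mean, among those at or above the median signal, were COPS8 (r = 0.996), STAM2 (0.990), CLOCK (0.990), MET (0.989) and BOLA3 (0.987). COPS8, a subunit of the COP9 signalosome, read 7.25, 7.17, 7.30 and 7.20 in the shControl arrays, 7.19 and 7.15 in shHDAC2 DOX(-) and 6.10 and 6.12 in shHDAC2 DOX(+). These correlations describe 8 arrays. The mean pattern was lowest in the shHDAC2 DOX(+) pair (-1.19 and -1.12), which the choice of the genes fixed. Each member is also part of the mean it was correlated with.

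The closest relatives of the members were read in the same comparison with the 4 shControl arrays. All 13 were measured, of which 3 were lower and 10 did not pass, with a median of -0.22 against -0.01 over all genes, of which 4.88% were lower. Lower were the O-mannosyltransferases TMTC1 (-0.88, SE 0.144, limma adjusted p = 0.0097) and TMTC2 (-0.62, limma adjusted p = 0.021), and DEPDC1B (-0.74, limma adjusted p = 0.0087). The other HP1 genes CBX1 and CBX3 differed by -0.26 and -0.24, the kinase STK38L by -0.01, MRTFA by 0.05, MYOCD by -0.24, CAND2 by -0.22, TMTC4 by -0.16, CEMIP2 by 0.40 and MFGE8, the relative of EDIL3, by 0.02. CHORDC1, the parent of the pseudogene, differed by -0.18 (limma adjusted p = 0.445). Its mean signal over the 4 shControl arrays was 4.69.

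**Figure D3:**
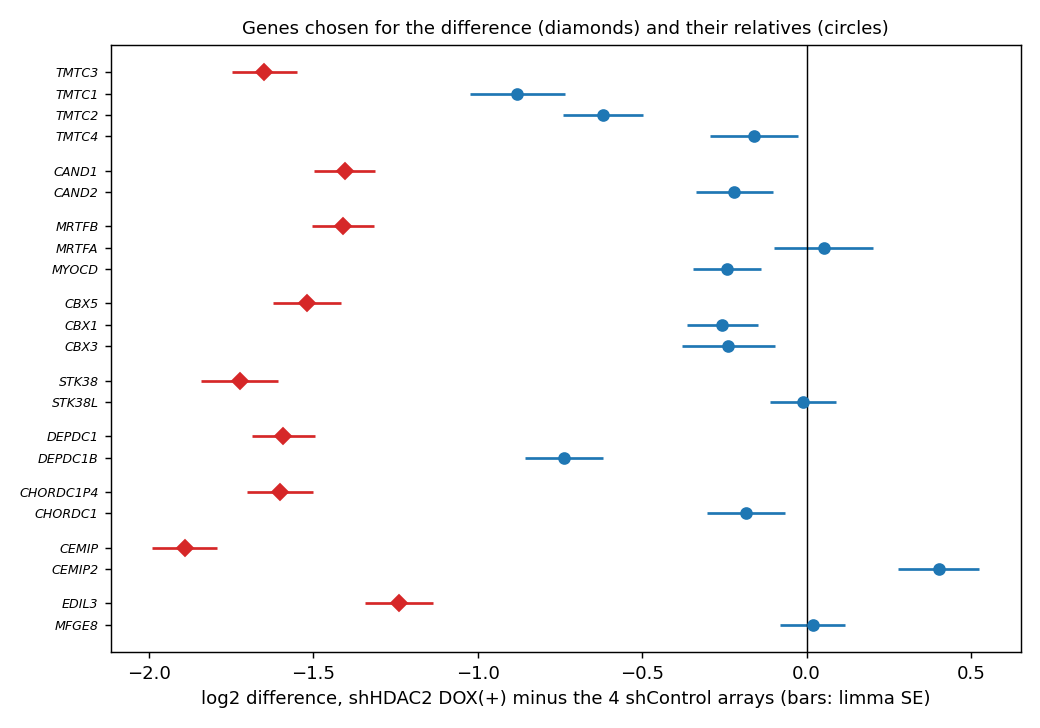
Log2 difference (horizontal axis) of shHDAC2 DOX(+) from the 4 shControl arrays for 9 chosen genes (red diamonds) and their 13 relatives (blue circles), with limma standard errors. The diamonds were chosen for this difference and lie at or below -1.24, while the circles run from -0.88 (TMTC1) to 0.40 (CEMIP2).

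Without doxycycline 7 of the 13 relatives were lower in shHDAC2 cells and 1 was higher, beside 17.0% and 14.0% of all genes. Some had the direction of the member. TMTC1 (-1.002, limma adjusted p = 0.0017) and TMTC2 (-0.54, limma adjusted p = 0.017) were lower, as TMTC3 was, and STK38L (-0.76, limma adjusted p = 0.0011) was lower, as STK38 was. Others did not. MFGE8 was 3.37-fold lower (-1.75, limma adjusted p = 6e-06), where EDIL3 was higher, and TMTC4 was higher (1.07, limma adjusted p = 0.00075). CBX1 (-0.85, limma adjusted p = 0.00089), CBX3 (-0.90, limma adjusted p = 0.0028) and CEMIP2 (-0.51, limma adjusted p = 0.024) were lower where CBX5 and CEMIP were not called.

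The pathways around the members were read against the 4 shControl arrays, where 4.88% of all genes were lower, and between constructs on doxycycline, where 3.03% were. Of 22 measured genes of cullin ligases and neddylation, the machinery that CAND1 serves, 1 was lower, COPS8 (-1.12, limma adjusted p = 0.00051), and the median was -0.06. COPS8 was also the 1 lower gene on doxycycline (-1.14, limma adjusted p = 0.0012). Of 9 genes of HP1 and H3K9 methylation 1 was lower, the chromatin remodeller ATRX (-0.65, limma adjusted p = 0.015), which was also lower on doxycycline (-0.75, limma adjusted p = 0.021). This list moved more without doxycycline, where 7 of the 9 were lower in shHDAC2 cells (median -0.60), beside 17.0% of all genes. ATRX was lower there by 1.29 on the log2 scale (difference -1.29, limma adjusted p = 0.00012). With doxycycline in shHDAC2 cells 6 of the 9 were higher, beside 15.5% of all genes, ATRX by 0.75 (limma adjusted p = 0.0028). Of 13 genes around the NDR and LATS kinases 1 was lower, the Hippo coactivator YAP1 (-1.40, limma adjusted p = 0.00034). Of 11 genes of the MRTF and SRF list 1 was lower, FHL2 (-0.42, limma adjusted p = 0.045). FHL2 read 6.36 and 6.23 in shControl DOX(-) and 5.73 and 5.81 in shControl DOX(+), and on doxycycline the constructs differed by -0.15 (limma adjusted p = 0.556), so this call rests on the DOX(-) controls. On doxycycline 0 genes of this list were lower by limma and 1 was higher. Of 7 genes of HSP90 and its co-chaperones 0 were called by limma, with PTGES3 at 0.01 and CDC37 at 0.30. On doxycycline YAP1 was lower as well (-1.38, limma adjusted p = 0.00095). It read 6.63, 6.70, 6.75 and 6.50 in shControl, 7.09 and 7.01 in shHDAC2 DOX(-) and 5.28 and 5.22 in shHDAC2 DOX(+), the order that DEPDC1 had. In the mitosis list 6 of 13 genes were lower and 0 higher, with a median of -0.45, and these included the topoisomerase TOP2A (-1.12, limma adjusted p = 0.00056), DEPDC1B and the checkpoint kinase BUB1 (-0.63, limma adjusted p = 0.0054). On doxycycline 4 of the 13 were lower. TOP2A (-0.54, limma adjusted p = 0.0052) and BUB1 (-0.51, limma adjusted p = 0.0051) were already lower in shHDAC2 cells without doxycycline, and with doxycycline in shHDAC2 cells TOP2A differed by -0.60 (limma adjusted p = 0.0031) and BUB1 by -0.14 (limma adjusted p = 0.365).

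In the hyaluronan list, around CEMIP, 3 of 9 genes were lower against the 4 shControl arrays, beside 4.88% of all genes. In this list 0 were higher, and the median was -0.15. The lower genes were the hyaluronan-binding proteoglycan VCAN (-0.84, limma adjusted p = 0.0020) and the hyaluronan receptors CD44 (-0.46, limma adjusted p = 0.028) and HMMR (-0.44, limma adjusted p = 0.048). On doxycycline 1 of the 9 was lower, VCAN (-1.12, limma adjusted p = 0.0017), while CD44 and HMMR differed by -0.47 and -0.43 and did not pass (limma adjusted p = 0.0585 and 0.102). VCAN read 6.34 and 6.22 in shControl DOX(-), 6.78 and 6.87 in shControl DOX(+), 8.99 and 8.90 in shHDAC2 DOX(-) and 5.70 and 5.72 in shHDAC2 DOX(+). Its groups stood in the same order as those of EDIL3. Of the 5 measured genes of the O-mannosylation list, TMTC1 and TMTC2 were lower, as above, and the integrin ligand list had 1 measured gene, MFGE8. The lists and relatives were chosen with results of these arrays known, so their counts are descriptions. In bulk RNA, fewer cells of a kind and less RNA per cell cannot be told apart.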

How the data were processed

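Total RNA of A172 cells was hybridized to Affymetrix arrays. The authors normalized the arrays by RMA in Affymetrix Expression Console, per the submitters' processing notes, and deposited log2 signals. RMA forces a common distribution on all arrays, which hides any shift shared by most genes. For tool versions and the genome build: not given in the sources used here. Of 53617 transcript clusters, 16098 had exactly 1 symbol in the platform annotation, which can be old, and 37519 had none there. A gene was represented by its brightest cluster.

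Differences were fitted with limma 3.58.1 in R 4.3.3, with 1 mean per group over all 8 arrays (4 residual degrees of freedom, 4.83 prior), and p-values were adjusted by Benjamini-Hochberg over the 16098 clusters. The threshold was an adjusted p of 0.05, two-sided. The fit was tested on simulated data. The number of arrays limits the precision. Members, lists and relatives were chosen with earlier results of these data known, and no list was tested as a set. Named were the members, HDAC2, the relatives, up to 3 genes past the threshold per list (or the 2 brightest), and the 5 genes most like the mean pattern. HNRNPA1P33, KIT, TYMS and UEVLD were named as neighbours in rank. The settings varied were a replicate block, omission of single arrays, fits on the compared groups alone, clusters at or above 3.664 (the median signal), all table rows, the mean of a gene's clusters, repeated quantile normalization, median centring, robust moderation with a trend, weighted arrays, and the unpaired two-tailed t-test of the methods.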

Additional observations from a re-analysis of the deposited data

Results flagged for a closer look

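The response to doxycycline was compared between shHDAC2 and shControl cells for 35 genes, namely HDAC2 and the relatives, list genes and markers named in the text. It differed in 20 by limma's test of the difference between responses, which called 3017 of all 14884 genes. HDAC2 was not among the 20 (difference -0.38). Genes chosen by rank or by likeness to the members alone were left out. The response was more negative in shHDAC2 cells in HAS2 (difference -4.37, adjusted p = 1.2e-06), VCAN (-3.79, adjusted p = 1.2e-06), NF2 (-2.52, adjusted p = 2.5e-05), YAP1 (-1.76, adjusted p = 0.00015), FHL2 (-1.53, adjusted p = 0.00027), TMTC4 (-1.20, adjusted p = 0.0047), COPS8 (-1.11, adjusted p = 0.00096), PLK1 (-1.09, adjusted p = 0.0010), CUL1 (-1.09, adjusted p = 0.0010), VIM (-0.92, adjusted p = 0.0026), CD44 (-0.71, adjusted p = 0.014) and TOP2A (-0.57, adjusted p = 0.034). It was more positive in KRT18 (3.6, adjusted p = 3.6e-06), NES (1.90, adjusted p = 0.00023), MFGE8 (1.74, adjusted p = 0.00011), KRT8 (1.23, adjusted p = 0.045), STK38L (0.77, adjusted p = 0.011), CEMIP2 (0.76, adjusted p = 0.029), SOX9 (0.66, adjusted p = 0.027) and CBX1 (0.63, adjusted p = 0.038). Many of these genes were named for their values on the same arrays, so the count is a description. All of these values rest on the shHDAC2 DOX(-) arrays, which stood apart from the other 6.

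In 3 chosen genes both DOX(+) arrays lay above both DOX(-) arrays in shControl cells and below them in shHDAC2 cells. The order in shHDAC2 cells held in every chosen gene and in 31.7% of all genes, and it shares arrays with the choice. The share of all genes with both orders was not counted, so this count is a description. In TMTC3 the separation in shHDAC2 cells was only 7.0730 against 7.0741, so an opposite direction there is uncertain. The responses differed by -3.53 in EDIL3, -2.26 in CEMIP and -0.37 in TMTC3. These differences were not tested, since the genes were chosen on the same arrays. Groups of 2 arrays are too small for a check of single outlying arrays.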

How the results depend on the processing

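The 10 genes kept a difference below 0 from the 4 shControl arrays under every alternative run, and no member's called difference changed sign in any comparison. Their median of -1.60 lay between -1.65 and -1.51 when single arrays were left out, the latter without shHDAC2 DOX(+) replicate 1. The genes were chosen for this difference on the same arrays, so its sign and median are descriptions and no independent check. Without doxycycline, 3 members were lower under every alternative except the methods' t-test, which gave 1 after Benjamini-Hochberg adjustment (CHORDC1P4; TMTC3 had an adjusted p of 0.0745 and STK38 of 0.126, and the rise of DEPDC1 of 0.0590) and 4 at an unadjusted p under 0.05. For doxycycline in shControl cells the robust fit called 1 gene, DUSP1 (-0.60, adjusted p = 0.0431), named here after its value was seen and no member. The t-test at an unadjusted p found 927 of 14884 genes and 6 of the 10 members, against 0 and 0. Of these members TMTC3 (0.23), CEMIP (0.66) and EDIL3 (0.78) were higher, and CAND1 (-0.14), DEPDC1 (-0.12) and CHORDC1P4 (-0.15) were lower.

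Deviations of arrays with the same replicate number correlated at -0.006 to 0.204 over 6 pairs of groups, so any pairing by number was weak. With the replicate number as a block, 4814 genes were called between constructs without doxycycline (4602 without the block), 975 against the 4 shControl arrays (916), 604 on doxycycline (570), 4894 for doxycycline in shHDAC2 cells (4682) and 3177 for the difference between responses (3017), with no member call changed.

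Counts over all genes moved more. Against the 4 shControl arrays they were 173 to 859 with single arrays left out, by over 1.5 times for each shControl array and each shHDAC2 DOX(+) array, 561 clusters with every row, 1444 with the robust fit, and 237 adjusted and 2764 unadjusted by the t-test. Between constructs on doxycycline they were 94 to 526, by over 1.5 times for each shControl DOX(+) and shHDAC2 DOX(+) array, 329 with only the arrays compared, 887 with brighter clusters, 204 with every row, 1108 with the robust fit, and 0 adjusted and 1860 unadjusted by the t-test. Without doxycycline there were 7636 clusters with every row and 177 genes by the adjusted t-test, and for doxycycline in shHDAC2 cells 7828 and 238. The causes of these shifts, among them fewer arrays or more rows entering a fit, were not tested. The t-test, which compares a pair of groups, was not run for the difference between responses.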

Other observations

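Some genes of the lists around the members, named after their values were seen, were high in shHDAC2 DOX(-) arrays and close to shControl in the other shHDAC2 pair. HAS2, a hyaluronan synthase, read 2.497, 2.39, 2.67 and 2.44 in shControl, 6.54 and 6.67 in shHDAC2 DOX(-) and 2.42 and 2.27 in shHDAC2 DOX(+), a DOX(-) difference of 4.16 (limma adjusted p = 6.7e-08). NF2, the merlin gene upstream of the Hippo kinases, read 5.83, 5.76, 5.71 and 5.83 in shControl, 8.50 and 8.54 in shHDAC2 DOX(-) and 6.13 and 5.83 in shHDAC2 DOX(+). Its DOX(-) difference was 2.72 (limma adjusted p = 8.4e-07). The kinase PLK1 of the mitosis list was higher in shHDAC2 DOX(-) by 0.98 (limma adjusted p = 0.00014) and the cullin CUL1 by 0.88 (limma adjusted p = 0.00025). None of these 4 genes was called against the 4 shControl arrays in shHDAC2 DOX(+), with differences of -0.15, 0.20, -0.20 and -0.22.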
